A study of Mus musculus with 42 samples.

Results

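The angiopoietins, the Tie receptors and angiopoietin-like genes were followed here in mouse skin wounds. Members were the probe sets whose gene symbol in the array annotation was Tie1, Tek, Angpt1, Angpt2, Angpt4, Angptl2 or Angptl4. Of these 7 genes, 6 had a probe set among the 20672 in the table, 1 probe set each, and Angptl2 was not analysed here because no probe set carried its symbol. The members measured were Tie1 (1416238_at, chr4:118471191-118489849), Tek (1418788_at, chr4:94739086-94874976), Angpt1 (1439066_at, chr15:42424667-42676977), Angpt2 (1448831_at, chr8:18690263-18741562), Angpt4 (1455427_at, chr2:151911207-151945337) and Angptl4 (1453410_at, chr17:33774900-33781575), with gene positions from RefSeq on GRCm38.p6.

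RNA of 42 skin samples was hybridised to 1-colour Affymetrix arrays, 1 array per sample. At day 7 the groups were IL-22-Fc (n = 5), VEGF (n = 5), PDGF (n = 3) and control (n = 5). At 24 h they were IL-22-Fc (n = 5), VEGF (n = 5), PDGF (n = 5) and control (n = 4), and 5 arrays came from untreated skin labelled baseline. The wounded animals were db/db mice, female in the methods, which lack a working leptin receptor and are obese and diabetic. Their age was 10 to 12 weeks, also from the methods, and the methods give their strain as BKS.Cg-Dock7m Leprdb, whereas the sample labels give C57BL/6 for every sample, the untreated ones included, and the genotype and sex of the untreated mice were not given in the sources used here. Wounds of 6 mm were treated on the skin surface, once with harvest 24 h later, or on days 0, 2, 4 and 6 with harvest on day 7. IL-22-Fc is the cytokine IL-22 fused to an antibody Fc part, VEGF is the main growth factor of blood vessels, and PDGF-BB drives fibroblasts and pericytes. Labels name the control as anti-ragweed antibody, whereas the methods name it as a control Fc protein. Doses differ between the sources too: VEGF is given as 20 µg by the labels but as 50 µg by the methods, IL-22-Fc as 20 µg or 50 µg, and PDGF as 50 µg. Skin around the wound was taken, so a sample mixes epidermis, dermis, fat and vessels.

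Tie1 and Tek (TIE2) are receptor tyrosine kinases found mainly on endothelial cells. Angpt1, made largely by pericytes and other mesenchymal cells, activates Tek and keeps vessels quiet, whereas Angpt2, released by endothelial cells, can oppose it and marks vessels that are sprouting or being remodelled. Angpt4 is a further Tek ligand, and Angptl4, which does not bind Tie receptors, inhibits lipoprotein lipase and is known as a target of PPARs, fasting and hypoxia. In whole skin, a change in the number of cells of a type and a change in RNA per cell cannot be told apart.

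The 250 bases directly upstream of the annotated start of Tie1, the member that moved most, are shown because ETS factors are known to act at endothelial promoters. They lie at chr4:118489850-118490099 on the minus strand (RefSeq, GRCm38.p6) and are written 5′ to 3′ on the strand of the gene, with each ETS core, GGAA or its reverse complement TTCC, in capitals.
Tie1: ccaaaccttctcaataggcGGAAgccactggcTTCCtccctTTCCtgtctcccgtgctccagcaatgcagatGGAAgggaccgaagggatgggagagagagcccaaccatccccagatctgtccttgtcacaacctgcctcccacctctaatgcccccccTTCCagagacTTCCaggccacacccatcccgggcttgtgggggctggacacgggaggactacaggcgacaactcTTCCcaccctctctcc
The window held 7 matches. Of 32851 RefSeq promoter windows of the same length, 93.5% held at least 1 match, the median window held 3, and 3.82% held as many as Tie1 or more. The 250 bases upstream of Angpt4 held 5 matches. Neither window held the GATA motif AGATAA or TTATCT, which was found in 9.99% of all windows. A match is a description of the letters and not a site of binding. The window listed for Tek lies mostly inside the gene, past its annotated start, and was not compared. None was shown for Angpt1, Angpt2 and Angptl4.

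Levels are log2 of the deposited intensities, and each level is compared between groups of arrays for 1 probe set, not between genes. The probe sets of 3 Y-linked genes, which female mice lack, gave log2 levels of 2.31 to 3.78 and served as background. In untreated skin, of unstated sex, Uty, Kdm5d and Eif2s3y averaged 3.31, 2.97 and 2.48. In control wounds of day 7 they averaged 3.28, 3.29 and 2.52. Tie1, Tek, Angpt1, Angpt2 and Angpt4 lay above that range on all 42 arrays, Angpt4 narrowly with log2 levels of 4.26 to 5.57. Angptl4 lay within it on 9 of 42 arrays. Background can differ between probe sets, so a level above this range does not by itself show that a gene was detected. Krt5 and Krt10 of the epidermis were high on all arrays (log2 levels of 12.02 to 13.66 and 12.98 to 14.04), while the single probe set of Krt14 read 5.15 to 7.36. Array medians spanned 5.63 to 5.72 on the log2 scale, above every Angpt4 level.

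Arrays of 2 groups stood apart before any comparison of members. The 5′ control probe set of Gapdh can read lower with poor RNA integrity or labelling, or with lower expression of Gapdh. Which of these applied was not tested. It read 11.26, 11.58 and 11.60 on the PDGF arrays of day 7, against 12.82 to 12.99 on the control arrays of day 7. Untreated replicate 5 read 11.14, against 12.50 to 12.92 in the other untreated arrays. Its correlation with the other untreated arrays over all probe sets was 0.941 to 0.947, against 0.986 to 0.993 among those 4, and 25.4% of probe sets were at least 1.5-fold away from their mean. Untreated replicate 3 had a mean macrophage marker level of 9.97, against 8.10 to 9.19 in the other untreated arrays. At day 7 the PDGF treatment and the 5′ level cannot be told apart, because no array of another treatment at day 7 came near the PDGF arrays.

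**Figure D1:**
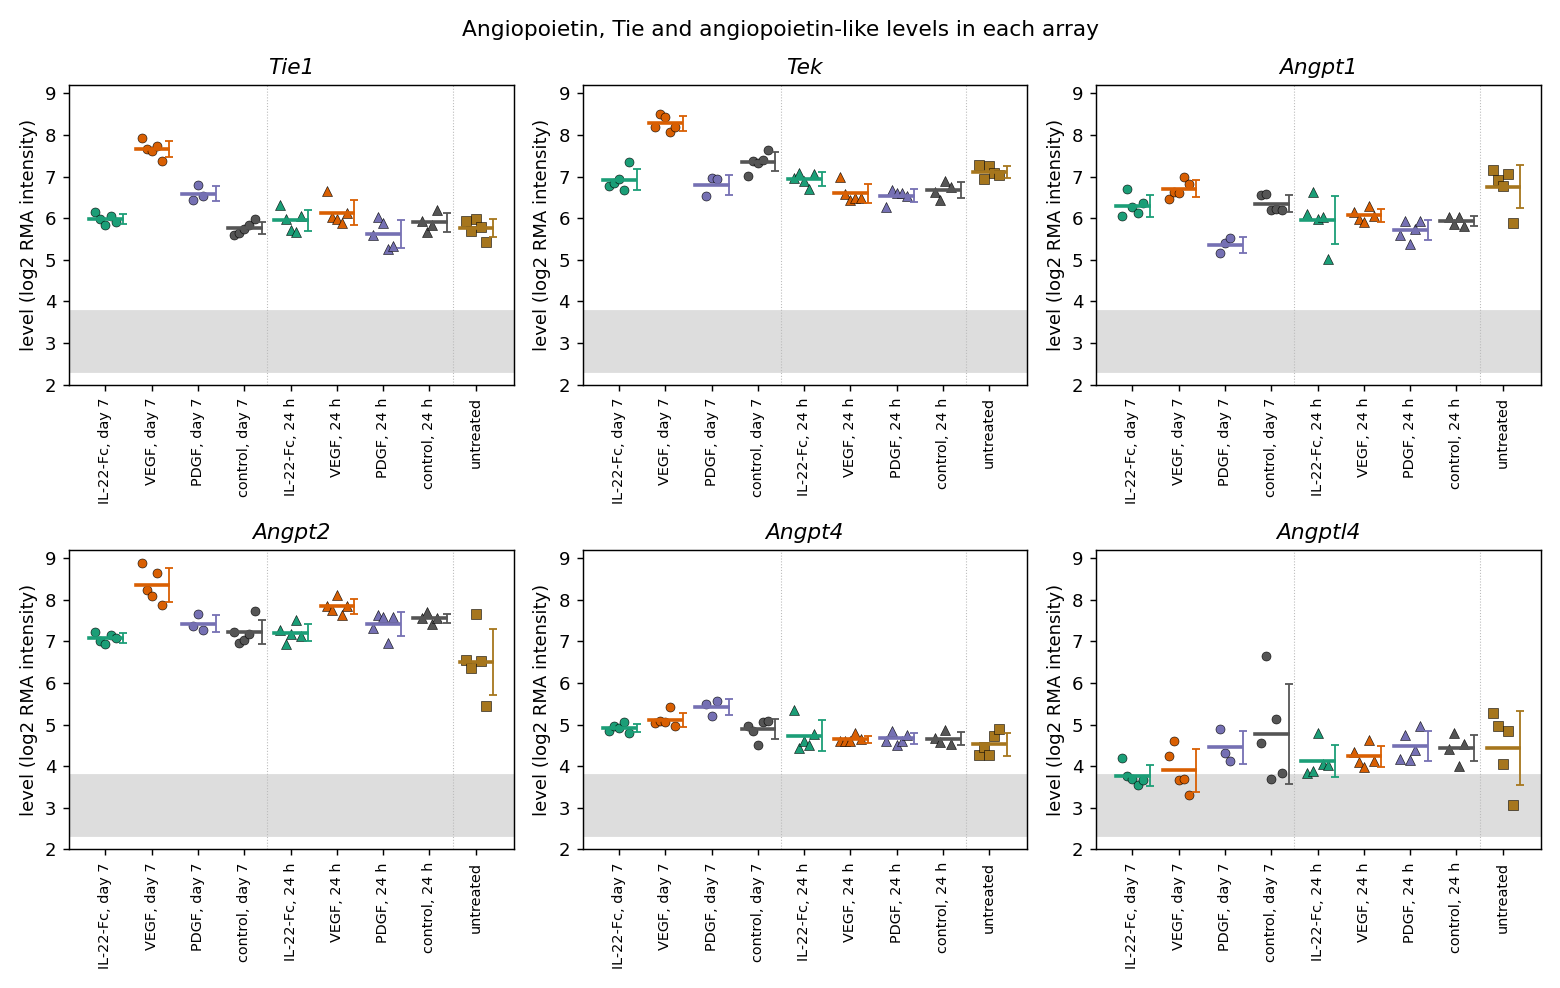
Log2 RMA intensity of the 6 measured members on every array (1 point per array), by group, with the group mean as a line and the SD as an error bar; the grey band is the range of the 3 Y-linked probe sets (2.31 to 3.78). Tie1, Tek and Angpt2 were highest in VEGF wounds at day 7, Angpt1 was lowest in PDGF wounds at day 7, and Angptl4 reached the band on 9 arrays.

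The first comparison asks how VEGF, given to the wound for a week, moved the Tie system. Both receptors and Angpt2 rose in VEGF wounds at day 7, whereas Angpt1, Angpt4 and Angptl4 did not pass the test. A probe set was counted as changed when limma's adjusted p, over all 20672 probe sets, was below 0.05 and the change was at least 1.5-fold. By that rule 3 of 6 members were higher and 0 lower, against 5.55% of all probe sets in either direction. The median log2 fold change was 0.64 over the members and -0.01 over all probe sets.

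Tie1, the orphan receptor of the pair, read 7.92, 7.65, 7.61, 7.74 and 7.37 on the VEGF arrays of day 7, against 5.60, 5.64, 5.74, 5.84 and 5.97 on the control arrays. The lowest VEGF array was well above the highest control array. This is a log2 fold change of 1.90 ± 0.10 (SE), or 3.73-fold, with an adjusted p of 2e-10 in limma. The exact permutation test over arrays, 2-sided, gave the smallest p these groups allow, 0.00794.

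Tek, the angiopoietin receptor, read 8.18, 8.50, 8.44, 8.08 and 8.20 in VEGF wounds, against 7.02, 7.38, 7.31, 7.39 and 7.65 in control wounds. The groups did not overlap. Its log2 fold change was 0.93 ± 0.13 (SE, 1.90-fold, adjusted p 4.06e-05 in limma).

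Angpt2 read 8.88, 8.22, 8.09, 8.64 and 7.88 in VEGF wounds, against 7.21, 6.97, 7.03, 7.17 and 7.72 in control wounds. The ranges came close to each other, since VEGF replicate 5 and control replicate 5 were 7.88 and 7.72, but did not overlap. Angpt2 rose by 1.12 ± 0.16 on the log2 scale (SE, 2.18-fold, adjusted p 4.68e-05 in limma).

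Angpt1, the activating ligand, averaged 6.70 ± 0.20 in VEGF wounds and 6.35 ± 0.19 in control wounds (SD, n = 5 each). Its log2 fold change of 0.35 (95% CI 0.09 to 0.62) did not pass the test, with an adjusted p of 0.0703 in limma, and the arrays overlapped. Angpt4 changed by 0.22 (95% CI -0.01 to 0.45, adjusted p 0.225 in limma) on the log2 scale.

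Angptl4 was the most variable member. It read 4.24, 4.61, 3.66, 3.69 and 3.30 in VEGF wounds, against 4.56, 6.65, 3.68, 5.14 and 3.84 in control wounds. The control arrays alone spread over almost 3 log2 units, with control replicate 2 highest. The log2 fold change of -0.87 (95% CI -1.69 to -0.06) had an adjusted p of 0.158 in limma, and was -0.40 without control replicate 2. Of the VEGF arrays 3 of 5, and of the control arrays 1 of 5, lay within the range of the Y-linked probe sets. Of the 4 other angiopoietin-like genes measured, 0 passed limma's test at 1.5-fold and 3 had an unadjusted p below 0.05, with log2 fold changes of -0.56 to 0.01.

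**Figure D2:**
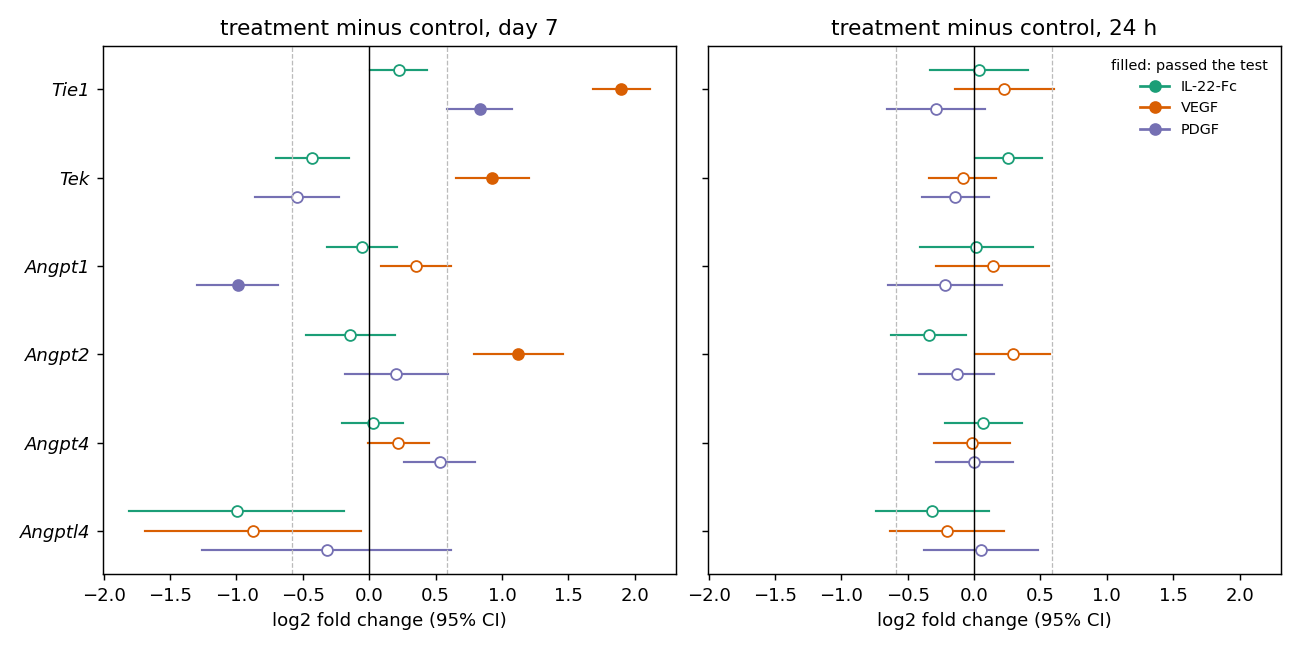
Log2 fold change of each member in IL-22-Fc, VEGF and PDGF wounds over control wounds at day 7 (left) and 24 h (right), with 95% confidence intervals; filled points passed the test and dashed lines mark 1.5-fold. At day 7 VEGF moved Tie1, Tek and Angpt2 up (1.90, 0.93 and 1.12), PDGF moved Tie1 up and Angpt1 down (0.83 and -0.99), and at 24 h no point passed.

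The rise of the receptors and of Angpt2 in VEGF wounds came with a rise of other endothelial genes. Of 26 endothelial markers, 20 were higher and 1 lower at day 7 (median log2 fold change 1.27), among them Emcn, a sialomucin of capillaries and veins, with a log2 fold change of 2.25, Sox18, an endothelial transcription factor, with 1.72, and Flt1, a VEGF receptor, with 1.70. Vwf, the clotting factor stored with Angpt2 in endothelial granules, was the 1 that fell, by 0.80. The mean log2 level of the 26 markers was 7.85 to 8.27 on the VEGF arrays and 6.92 to 6.99 on the control arrays.

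Set against this mean on each array, the 3 changed members separated. Tie1 rose by 0.82 ± 0.09 (SE) on the log2 scale more than the marker mean, with an adjusted p of 1.54e-08 in limma. Of the 26 markers, 1 rose more than Tie1. Tek changed by -0.15 ± 0.14 (SE, adjusted p 0.31 in limma) and Angpt2 by 0.04 ± 0.14 (SE, adjusted p 0.749 in limma) relative to the mean. Among the markers, 18 rose more than Tek and 16 more than Angpt2.

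Relative to the marker mean Angpt1, Angpt4 and Angptl4 changed by -0.73, -0.86 and -1.95 on the log2 scale, all past the test. So were most other genes: on this relative scale 97.1% of all probe sets passed in VEGF wounds, with a median of -1.09, since subtracting a marker mean that rose by 1.08 lowers every gene that did not rise. The fall of these 3 members is read against that share. Tie1, the other member past the test, was among 32 of 20672 probe sets that were higher on this scale. On the same scale 0 of 6 members passed in IL-22-Fc wounds (2.38% of all probe sets). In PDGF wounds 3 of 6 passed (15.7%), with relative changes of 0.73 for Tie1, -0.65 for Tek and -1.10 for Angpt1. With Pecam1 and Cdh5 alone as the markers the value of Tek was -0.58, under the fold threshold.

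**Figure D3:**
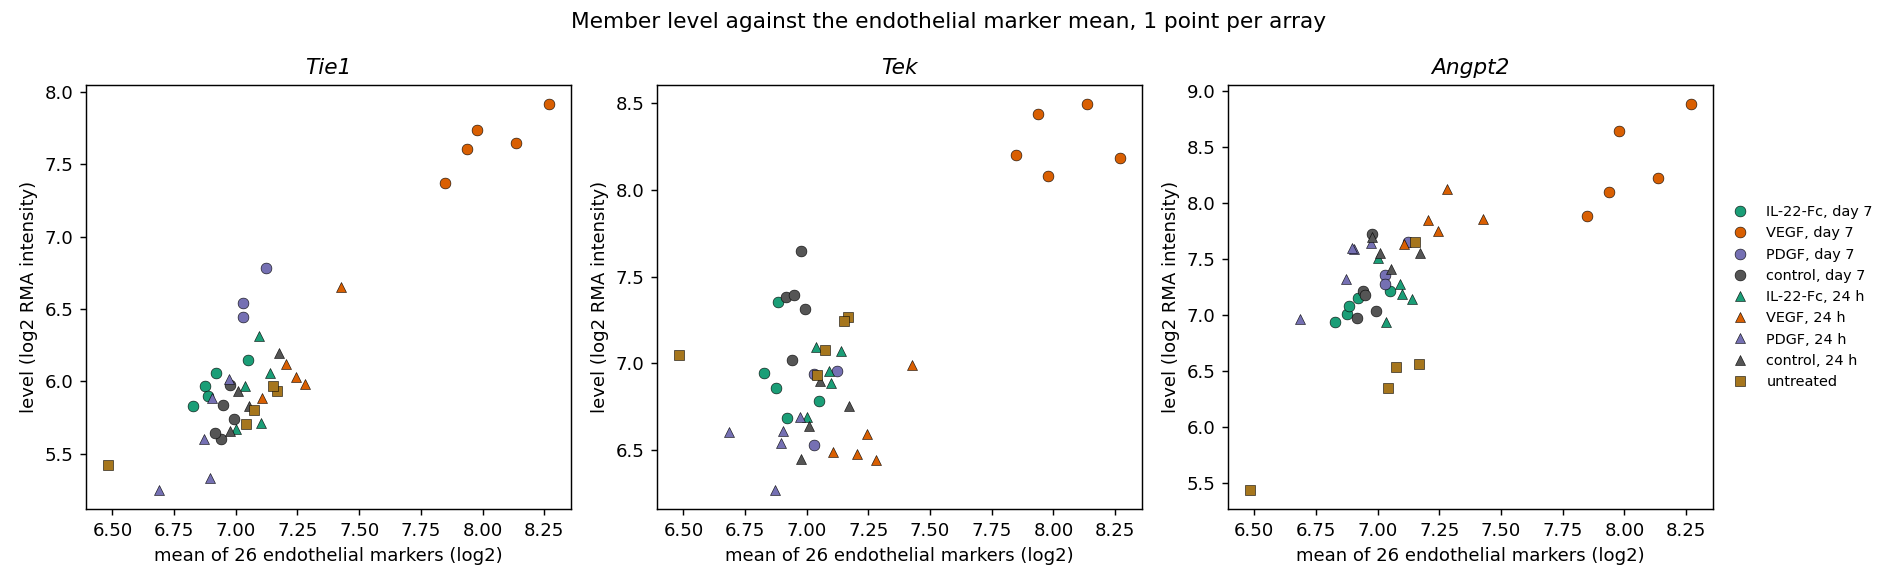
Log2 level of Tie1, Tek and Angpt2 against the mean log2 level of 26 endothelial markers, 1 point per array, coloured by treatment and with circles for day 7, triangles for 24 h and squares for untreated skin. The VEGF arrays of day 7 lie apart at a marker mean of 7.85 to 8.27; the PDGF arrays of day 7 lie above the other arrays of like marker mean in Tie1 but not in Tek.

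Of the 25 measured genes of TIE2 signalling and its partners, 4 were higher and 1 lower in VEGF wounds at day 7 (median log2 fold change 0.10). Ptprb, the endothelial phosphatase VE-PTP that removes phosphate from TIE2, rose by 0.77. Svep1, an extracellular protein known to bind TIE1, rose by 0.85, Nos3, the endothelial nitric oxide synthase, by 0.83, and the integrin chain Itgb3 by 0.85. Grb7, an adaptor that binds the receptor tail, fell by 0.83. Nos3 is also among the endothelial markers.

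Among 15 other genes known as FOXO1 targets in endothelium, 4 were higher (Esm1 by 3.09, Cldn5 by 1.03, Apln by 0.96 and Pdgfb by 0.86 on the log2 scale) and Klf4 fell by 0.71. The list does not give the direction in which FOXO1 moves each gene. Esm1 and Apln are known markers of sprouting tip cells, and Cldn5 is also among the endothelial markers. Around Angptl4, 1 of 17 triglyceride-handling genes was higher and 1 lower. Gpihbp1, which carries lipoprotein lipase to the capillary surface and is also an endothelial marker, rose by 1.66, and Pdk4, a fasting-induced kinase, fell by 0.99. Of 19 hypoxia-response genes, 3 were higher (Adm by 1.75, Epas1 by 0.73 and P4ha1 by 0.61) and Egln3 fell by 1.03.

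Other cell types moved with the VEGF group too. Of 15 pericyte and smooth muscle markers, 8 were higher (Rgs5 by 2.05, Higd1b by 1.71 and Abcc9 by 1.55). All 10 adipocyte markers measured fell (median log2 fold change -0.93), and 7 of 10 keratinocyte markers fell (median -0.67). Of 6 lymphatic markers Flt4 rose by 0.99 and Reln fell by 0.68. With limma 0 of 11 macrophage, 0 of 11 fibroblast and 0 of 6 neutrophil markers passed, while 9, 4 and 1 of them had an unadjusted p below 0.05. Of 6 skeletal muscle markers Myh4 fell by 0.96. The part of these shifts in the members' changes was not tested.

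In PDGF wounds at day 7 Tie1 rose and Angpt1 fell, 2 of 6 members against 16.0% of all probe sets, and the median log2 fold change was -0.06 over the members and 0.04 over all probe sets. Tie1 read 6.44, 6.79 and 6.54 in PDGF wounds, against 5.60 to 5.97 in control wounds, with no overlap. Its log2 fold change was 0.83 ± 0.12 (SE, 1.78-fold), with an adjusted p of 1.2e-05 in limma. The smallest p that 3 against 5 arrays allow in the exact permutation test, 0.0179, was reached.

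Angpt1 read 5.16, 5.39 and 5.53 in PDGF wounds, against 6.55, 6.58, 6.20, 6.23 and 6.20 in control wounds. All 3 PDGF arrays were below every control array. This gave a log2 fold change of -0.99 ± 0.15 (SE), with an adjusted p of 1.82e-05 in limma.

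Angpt1 was also low on some other arrays with a low Gapdh 5′ level, and on some with a high one. These arrays are of other groups, so they cannot tell PDGF and the 5′ level apart at day 7. Untreated replicate 5, whose Gapdh 5′ level was 11.14, read 5.88 for Angpt1, against a mean of 6.98 in the other untreated arrays. IL-22-Fc replicate 5 at 24 h, with a Gapdh 5′ level of 12.16, had the lowest Angpt1 level of all arrays, 5.02. The Actb 5′ level of that array was 13.50, the highest of its group (13.20 to 13.50). Control replicate 4 at 24 h, with a Gapdh 5′ level of 12.21 and an Actb 5′ level of 13.31, read 5.82. The 4 control arrays of that time spanned 5.82 to 6.03. Control replicate 2 at 24 h, with a high Gapdh 5′ level of 13.27, read 5.86. PDGF wounds at 24 h had the highest mean Gapdh 5′ level of that time, 13.12, and the lowest mean Angpt1 level, 5.71. With the mean 5′ level of Gapdh and Actb as a covariate, Angpt1 in PDGF wounds had a log2 fold change of -1.06 ± 0.46 (SE), with an adjusted p of 0.284 in limma. Tie1 kept its call with that covariate, at 1.58 and an adjusted p of 0.0245 in limma. Untreated replicate 5 was lower in Tie1 than the mean of the other untreated arrays, at 5.42 against 5.85. That array also had a lower endothelial marker mean, 6.48 against 7.04 to 7.17 in the other untreated arrays. For Tie1 too, PDGF and the 5′ level cannot be told apart at day 7.

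**Figure D4:**
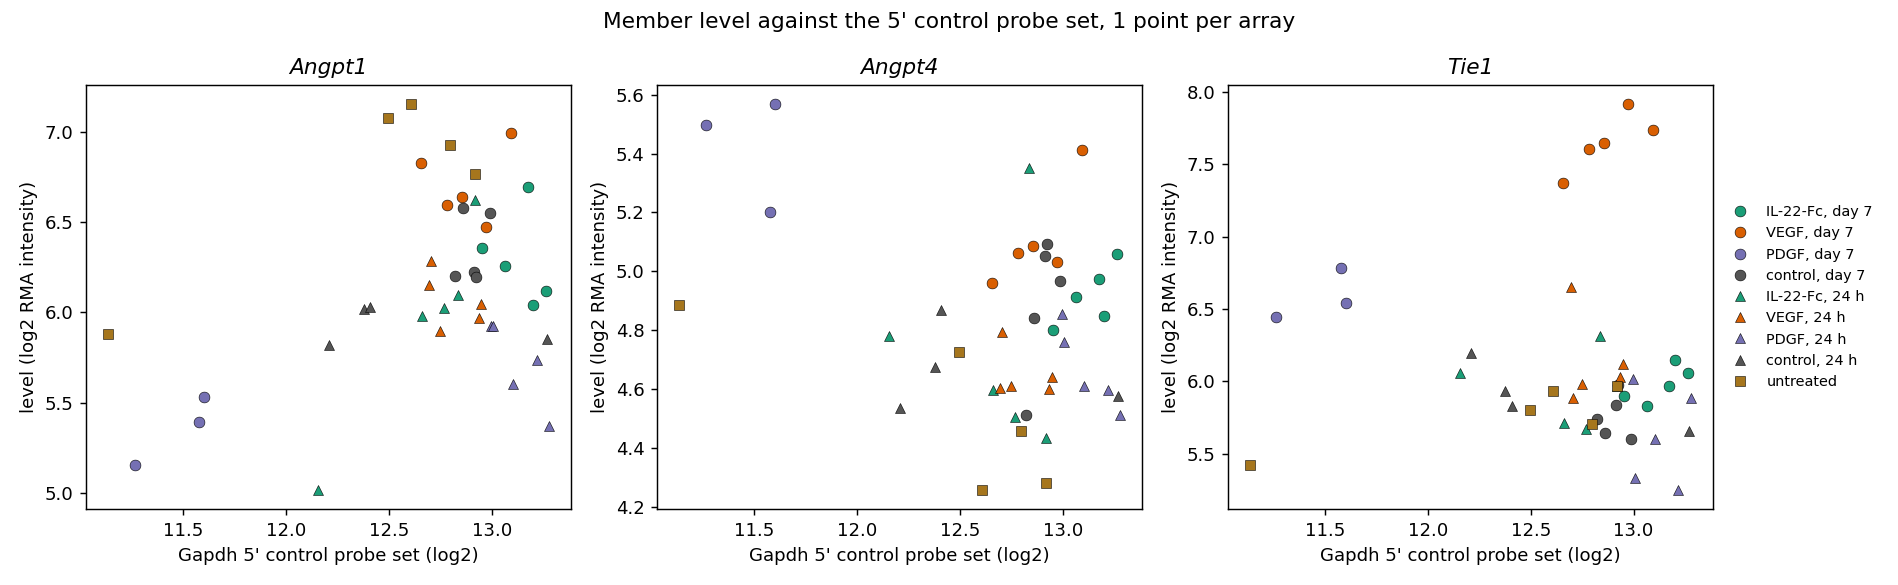
Log2 level of Angpt1, Angpt4 and Tie1 against the log2 level of the Gapdh 5′ control probe set, 1 point per array, with the colours and symbols of the endothelial plot. The 3 PDGF arrays of day 7 and 1 untreated array lie apart at a 5′ level of 11.14 to 11.60; in Angpt1 the PDGF arrays are low, in Angpt4 and Tie1 they are high against the other arrays of day 7 except, in Tie1, those of VEGF and, in Angpt4, 1 VEGF array.

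Tek read 6.53, 6.95 and 6.94 in PDGF wounds, against 7.02 to 7.65 in control wounds. The arrays did not overlap, but the log2 fold change of -0.54 ± 0.15 (SE, adjusted p 0.0076 in limma) was below the fold threshold. Angpt4 read 5.50, 5.20 and 5.57, against 4.51 to 5.09 in control wounds, a log2 fold change of 0.53 ± 0.13 (SE, adjusted p 0.00248 in limma) that was also below it. Tek passed without control replicate 1 (-0.63), PDGF replicate 2 (-0.62) or PDGF replicate 3 (-0.61), and Angpt4 without PDGF replicate 2 (0.64). Untreated replicate 5 read 4.89 for Angpt4, against a mean of 4.43 in the other untreated arrays. Angpt2 and Angptl4 had log2 fold changes of 0.21 (95% CI -0.18 to 0.59) and -0.32 (95% CI -1.26 to 0.62). Angptl4 turned to 0.15 without control replicate 2. With the 5′ covariate Angpt2 was at 1.34 ± 0.51 and Tek at -1.19 ± 0.45 (SE), with adjusted p-values of 0.215 and 0.21 in limma.

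Of the 26 endothelial markers 2 were higher in PDGF wounds, Vwf by 1.30 and Tal1 by 0.64, and Cd93 fell by 1.00. The median log2 fold change was 0.14. Of the 25 TIE2 signalling genes, 3 were higher (Dok2 by 0.96, Itgb3 by 0.85 and Foxo3 by 0.65). The 7 that fell were Pik3r1 (-1.84), which encodes a regulatory subunit of the kinase PI3K, the kinases Akt1 (-1.06) and Akt2 (-0.93), the integrin chain Itgav (-1.29), the sheddase Adam17 (-1.10), Grb14 (-0.95) and Ptprb (-0.64). Of the 4 other angiopoietin-like genes Angptl1 fell by 1.07. PDGF wounds also had 5 of 11 fibroblast markers lower (Lum -2.17), 3 of 15 pericyte and smooth muscle markers lower (Rgs5 -2.38) and 6 of 10 adipocyte markers lower, while 4 of 11 macrophage markers were higher (Cd163 by 1.70) and 1 lower. Their part in the fall of Angpt1 was not tested. Of 15 FOXO1 targets 2 were lower (Cited2 -1.31 and Esm1 -0.67), of 17 triglyceride-handling genes 3 were higher and 4 lower, and of 19 hypoxia-response genes 4 were higher and 2 lower.

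The comparison of IL-22-Fc with control wounds at day 7 gave no member past the test. With limma 0 of 6 passed, against 2.30% of all probe sets, and 3 had an unadjusted p below 0.05. Tek averaged 6.92 ± 0.26 in IL-22-Fc wounds and 7.35 ± 0.23 in control wounds (SD, n = 5 each), a log2 fold change of -0.43 with an adjusted p of 0.0648 in limma. Tie1 averaged 5.98 ± 0.13 in IL-22-Fc wounds and 5.76 ± 0.15 in control wounds (SD, n = 5 each, adjusted p 0.247 in limma). Angptl4 had a log2 fold change of -0.999 (95% CI -1.81 to -0.19, adjusted p 0.159 in limma), and -0.53 without control replicate 2. Of the IL-22-Fc arrays 4 of 5 lay within the range of the Y-linked probe sets for Angptl4. Angpt1, Angpt2 and Angpt4 had log2 fold changes of -0.06, -0.14 and 0.03, with intervals that stayed within 0.48 of 0.

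Of the 26 endothelial markers 0 passed limma's test in IL-22-Fc wounds, and 4 had an unadjusted p below 0.05. Likewise 0 of 15 pericyte and smooth muscle markers passed, with 8 at an unadjusted p below 0.05. Of the TIE2 signalling genes Grb14 fell by 0.79. Of 15 FOXO1 targets 0 passed in limma (1 at an unadjusted p below 0.05), and of the 4 other angiopoietin-like genes 0 passed (0 unadjusted). Among triglyceride-handling genes Lpl, the lipase that Angptl4 inhibits, fell by 0.62, and the fatty acid receptor Cd36 fell by 0.59. Of the hypoxia-response genes Egln3 rose by 0.98 and Egln1 by 0.77. In the same wounds 3 of 6 neutrophil markers were higher and 2 of 10 adipocyte markers lower. The receptors and integrin chains known to bind ANGPTL2 (Pirb, Itga5 and Itgb1) had 0 of 3 past limma's test at day 7 in IL-22-Fc, VEGF and PDGF wounds against control, with 0, 1 and 2 at an unadjusted p below 0.05.

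The treatments were then set against each other at day 7. VEGF wounds were above IL-22-Fc wounds in Tie1, Tek and Angpt2 (3 of 6 members, against 8.48% of all probe sets), with log2 fold changes of 1.68, 1.36 and 1.27. VEGF wounds were above PDGF wounds in Tie1, Tek, Angpt1 and Angpt2 (4 of 6, against 20.0%), with 1.07, 1.47, 1.34 and 0.92. With the 5′ level as a covariate 0 of these 4 kept the call, though the values moved in different ways. Tek was at 2.20 ± 0.50 (SE) and Angpt1 at 1.42 ± 0.51, no smaller but with larger errors, whereas Tie1 was at 0.21 ± 0.36 and Angpt2 at -0.37 ± 0.58 (SE, adjusted p-values in limma 0.0574, 0.221, 0.852 and 0.838). IL-22-Fc wounds were below PDGF wounds in Tie1 (-0.61) and above them in Angpt1 (0.93), 2 of 6 against 17.9%. That Tie1 value dropped under the fold threshold without IL-22-Fc replicate 3 (-0.57) or without PDGF replicate 2 (-0.51). With the 5′ covariate both lost the call at values no smaller than these, Tie1 at -1.41 and Angpt1 at 1.01 (adjusted p 0.0622 and 0.366 in limma).

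At 24 h, after a single dose, no member passed in any treatment. The counts were 0 of 6 in IL-22-Fc wounds (0.0967% of all probe sets), 0 of 6 in VEGF wounds (0.102%) and 0 of 6 in PDGF wounds (0.914%), with 2, 1 and 0 members at an unadjusted limma p below 0.05. Angpt2 was the nearest in VEGF wounds. It read 7.86, 7.75, 8.12, 7.63 and 7.85 there, against 7.55, 7.69, 7.41 and 7.55 in control wounds, with a log2 fold change of 0.29 (95% CI 0.01 to 0.57, adjusted p 0.518 in limma). The arrays overlapped only in VEGF replicate 4 and control replicate 2. Angpt2 was lower in IL-22-Fc wounds by a log2 fold change of -0.34 (adjusted p 0.65 in limma), which also did not pass. Tie1 in VEGF wounds at 24 h had a log2 fold change of 0.23 (95% CI -0.14 to 0.60), and 2 of 26 endothelial markers were higher at that time, Gpihbp1 by 0.99 and Flt1 by 0.61.

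Whether a treatment acted differently at the 2 times was tested as the difference of its effects. Wounds of 24 h had a single dose and those of day 7 repeated doses, so time and number of doses cannot be told apart. The VEGF effect was larger at day 7 than at 24 h for Tie1 by 1.67, Tek by 1.02 and Angpt2 by 0.83 on the log2 scale (3 of 6 members, against 6.00% of all probe sets). The adjusted p-values in limma were 1.39e-06, 0.000238 and 0.0115. The PDGF effect was larger at day 7 for Tie1 by 1.12 and lower for Angpt1, with a difference of -0.77 (2 of 6, against 20.9%). Without PDGF replicate 1 at day 7 the Angpt1 difference was -0.67, with an adjusted p of 0.0835 in limma, and with the 5′ covariate neither passed, at 1.05 for Tie1 and -0.66 for Angpt1 with larger errors (SE 0.42 and 0.50). The IL-22-Fc effect was lower at day 7 for Tek, with a difference of -0.68 (1 of 6, against 1.43%) and an adjusted p of 0.0466 in limma. When each of the 19 arrays was left out in turn, Tek stayed past the test in 4 cases, with differences of -0.60 to -0.71 and adjusted p-values of up to 0.126 in limma in the others.

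Between control wounds and untreated skin Angpt1 and Angpt2 differed in opposite directions. The genotype of the untreated mice was not given, so wounding and genotype cannot be told apart here. The titles of the untreated samples are also numbered apart from those of all wounded samples, and the sources do not say why. Angpt1 read 6.02, 5.86, 6.03 and 5.82 in control wounds at 24 h, against 7.15, 6.93, 6.77, 7.07 and 5.88 in untreated skin. Only untreated replicate 5 reached the level of the wounds. Angpt1 had a log2 fold change of -0.83 ± 0.21 (SE, adjusted p 0.00139 in limma), and -1.05 without that array.

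Angpt2 read 7.55, 7.69, 7.41 and 7.55 in control wounds at 24 h, against 6.56, 6.35, 7.65, 6.53 and 5.44 in untreated skin. Untreated replicate 3, which had the high macrophage marker level, was within the range of the wounds, and untreated replicate 5 was far below the rest. Angpt2 had a log2 fold change of 1.05 ± 0.23 (SE, adjusted p 0.000376 in limma), 0.78 without replicate 5, 1.33 without replicate 3, and 1.07 without both. When the fit held only these 9 arrays its adjusted p in limma was 0.0573. These 2 of 6 members compare with 18.2% of all probe sets. Tek had a log2 fold change of -0.43 (adjusted p 0.00865 in limma), under the fold threshold, with no overlap between the arrays.

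Markers of other cell types moved along with these values. In control wounds at 24 h, 6 of 15 pericyte and smooth muscle markers, 5 of 11 fibroblast markers and 7 of 10 adipocyte markers were lower than in untreated skin, and 7 of 11 macrophage and 5 of 6 neutrophil markers were higher. Without untreated replicates 3 and 5 the lower counts were 8, 3 and 10 and the higher counts 8 and 5. Of 26 endothelial markers 3 were higher and 4 lower. Their part in the changes of Angpt1 and Angpt2 was not tested.

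At day 7, control wounds had 1 of 6 members past the test against untreated skin (15.7% of all probe sets). This was Angpt2, with a log2 fold change of 0.72 ± 0.22 (SE, adjusted p 0.00863 in limma). Without untreated replicate 5 it was 0.45 with an adjusted p of 0.0577 in limma, and Angpt1 then passed in its place, at -0.63 with an adjusted p of 0.00397 in limma. Without untreated replicate 3, Angpt2 was at 1.00. Without both untreated arrays that stood apart, Angpt1 and Angpt2 both passed, at -0.70 and 0.74. Angpt2 did not pass with the fit limited to these 10 arrays (adjusted p 0.138 in limma), with array weights (0.57) or with the 5′ covariate (0.38). Angpt1 passed with array weights (-0.62, adjusted p 0.00153 in limma) and with the 5′ covariate (-0.61, adjusted p 0.0117 in limma). All 10 adipocyte markers were lower, and 10 of 11 macrophage and 8 of 11 fibroblast markers higher, in these wounds than in untreated skin, with the same counts without untreated replicates 3 and 5.

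Between the control wounds, Tek was the 1 of 6 members that differed (13.2% of all probe sets). It read 7.02, 7.38, 7.31, 7.39 and 7.65 at day 7, against 6.64, 6.45, 6.90 and 6.75 at 24 h, with no overlap. The log2 fold change was 0.67 ± 0.13 (SE, adjusted p 0.000138 in limma). Angpt1 also did not overlap, at 6.20 to 6.58 at day 7 against 5.82 to 6.03 at 24 h, but its log2 fold change of 0.42 had an adjusted p of 0.127 in limma. Along with Tek, 7 of 15 pericyte and smooth muscle markers and 7 of 11 fibroblast markers were higher at day 7, 3 of 6 neutrophil markers were lower, and of 26 endothelial markers 4 were higher and 4 lower. Their part in the change of Tek was not tested.

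Over the 9 groups, ordered by mean level, VEGF wounds at day 7 stood first in Tie1 (7.66 ± 0.20), Tek (8.28 ± 0.18) and Angpt2 (8.34 ± 0.41, SD, n = 5 each). In Tie1 and Tek the arrays of that group did not overlap with those of the next one, PDGF at day 7 (6.59 ± 0.18, SD, n = 3) and control at day 7 (7.35 ± 0.23, SD, n = 5). In Angpt2 they overlapped with VEGF at 24 h (7.84 ± 0.18, SD, n = 5). Every other pair of neighbours in the order overlapped, in all 6 members. Angpt1 was highest in untreated skin (6.76 ± 0.51, SD, n = 5) and lowest in PDGF wounds at day 7 (5.36 ± 0.19, SD, n = 3). Angpt4 had these 2 groups at the opposite ends, with PDGF at day 7 first (5.42 ± 0.19, SD, n = 3) and untreated skin last (4.52 ± 0.28, SD, n = 5).

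The probe sets most like each member over the 42 arrays were found by Pearson's r, as a description in which treatment, time and array quality are shared. Tie1 was most like Notch4, an endothelial Notch receptor (r = 0.97), Gja4, connexin 37 of arterial endothelium (0.94), and Pecam1 (0.91), and after subtraction of group means these were 0.76, 0.72 and 0.69. Tek was most like Klhl4 (0.92), Pcdh18 (0.88) and the pericyte gene Higd1b (0.88), with 0.42, 0.38 and 0.41 within groups. Angpt2 was most like the endothelial genes Ecscr (0.84), Icam2 (0.81) and Apln (0.80), with 0.49, 0.50 and 0.42 within groups.

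Angpt1 was most like Ankrd29 (0.88), Ebf1, a transcription factor of adipocytes and B cells (0.87), and Plagl1 (0.87), with 0.77, 0.72 and 0.71 within groups. Angpt4 was most like Rcan3 (0.82), Naglu (0.81) and Aldh7a1 (0.80), with 0.53, 0.37 and 0.48 within groups. Angptl4 was most like the clock repressor Nr1d1 (0.71), Arid5b (0.69) and Wfikkn1 (0.64), with 0.74, 0.73 and 0.64 within groups. Among the members themselves, Tie1 and Tek had an r of 0.74 (0.41 within groups) and Tie1 and Angpt2 of 0.68 (0.49 within groups), whereas Angpt1 and Angpt2 had -0.02 (0.14 within groups).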

How the data were processed

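Skin RNA of 42 samples was hybridised to Affymetrix Mouse430 arrays. The authors normalised probe set intensities by RMA and kept the probe set of highest variance per Entrez gene. RMA and limma are named in the submitters' notes without a version. The deposited intensity values were on a linear scale (3.85 to 23537, median 50.8) and were turned to log2 here. Columns were matched to samples by the labels, and 0 columns of other samples were left out. Of 20672 probe sets, 17928 carried 1 gene symbol, 79 several and 2665 none. Array number, not read depth, limits precision.

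limma 3.58.1 in R 4.3.3 was fitted over 18 arrays (day 7), 19 (24 h), or all 42 or the 37 wounded ones for comparisons across times. A call needed a Benjamini-Hochberg adjusted p below 0.05 and 1.5-fold. Exact permutation tests were 2-sided. The scripts were tested on simulated data. Replicate numbers follow the order of the samples and do not pair them; nothing in the sources says that samples of a group came from separate animals, so p-values measure the spread between samples. The members, 16 other gene lists and the rule for named genes (every member; called TIE2 and angiopoietin-like genes; up to 4 called of other lists; the 3 most alike probe sets) were chosen with earlier results of these data known. Alternatives were the arrays in the fit, quantile normalisation, a filter at log2 5, no fold threshold, array weights, a trended robust spread, the 5′ control level as a covariate, leaving out each array, Pecam1 and Cdh5 as the markers, and the t-test of the methods.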

Additional observations from a re-analysis of the deposited data

Results flagged for a closer look

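Within groups of 4 or 5 arrays, 4 of 48 sets of member values held an array far from the rest, and chance alone gives about 1 in 20. Tek read 6.99 on VEGF replicate 1 at 24 h, against 6.44 to 6.59 on the other VEGF arrays of that time. Angpt4 read 5.41 on VEGF replicate 4 at day 7, against 4.96 to 5.08 on the others. Angpt4 read 4.79 on VEGF replicate 4 at 24 h, against 4.60 to 4.64 on the others. Angptl4 read 4.80 on IL-22-Fc replicate 3 at 24 h, against 3.83 to 4.06 on the others.

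A further 6 values concern treatments whose effect at day 7 differed from that at 24 h by the test of the difference itself. For VEGF these were Tie1 (1.67), Tek (1.02) and Angpt2 (0.83), for PDGF Tie1 (1.12) and Angpt1 (-0.77), and for IL-22-Fc Tek (-0.68), all on the log2 scale as the effect at day 7 minus that at 24 h. The 2 PDGF values rest on the 3 arrays of day 7 with the low 5′ control level, which cannot be told apart from PDGF. With that level as a covariate, in a fit that cannot separate it from PDGF, Tie1 was at 1.05 and Angpt1 at -0.66. Neither passed, with larger errors (SE 0.42 and 0.50).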

How the results depend on the processing

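VEGF against control at day 7 had 3 members past the test in every alternative tried but the unadjusted t-test of the methods, which gave 4. Tie1 (1.80 to 1.97), Tek (0.84 to 1.02) and Angpt2 (0.97 to 1.25) each kept the call in all 20. For PDGF against control the count was 2, but 4 with no fold threshold, 4 with the unadjusted t-test of the methods, and 1 with the 5′ level as a covariate. Leaving out each array gave 2 to 4. With that covariate the count was 0 for VEGF against PDGF (4 as reported), where Angpt2 changed sign to -0.37, 0 for IL-22-Fc against PDGF (2), and 0 for the change of the PDGF effect between times (2). Leaving out each array gave 1 to 2 for IL-22-Fc against PDGF and 1 to 3 for the change of the PDGF effect. IL-22-Fc against control at day 7 had 0, and 0 with the t-test of the methods after Benjamini-Hochberg adjustment, but 2 unadjusted. Control wounds against untreated skin had 1 in place of 2 at 24 h and 0 in place of 1 at day 7 when the fit held only the groups compared, and 2 at day 7 with no fold threshold or without both untreated arrays that stood apart, an alternative chosen after seeing the data. No fold threshold also gave 3 in place of 2 at 24 h (Tek), 4 in place of 3 for VEGF against IL-22-Fc (Angpt1), and 3 in place of 2 for IL-22-Fc against PDGF and for the change of the PDGF effect (Angpt4 in both). The change of the IL-22-Fc effect had 0 in place of 1 with only its groups in the fit or with array weights, and 0 to 1 with each array left out. The covariate raised the errors of comparisons with PDGF at day 7. In several of them the values shrank little or grew. In VEGF against PDGF, Tie1 went from 1.07 to 0.21 and Angpt2 from 0.92 to -0.37. The PDGF arrays lay outside the 5′ levels of all other arrays of day 7. These fits therefore cannot tell PDGF and the 5′ level apart. Why the values moved was not tested. Quantile normalisation moved none of 54 group means by more than 0.0620. The filter at log2 5 left out Angptl4, and Angpt4 at 24 h.

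No paired analysis was possible because the columns carry no replicate numbers from the labels. Precision was limited by 3 to 5 arrays a group, by Angptl4 lying at the level of Y-linked probe sets on 9 of 42 arrays, and by the low 5′ level of all 3 PDGF arrays at day 7. In the day 7 fit without the PDGF arrays, also chosen after seeing the data, no call of VEGF or IL-22-Fc changed. Each gene rests on 1 probe set.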
